A study of Mus musculus with 9 samples.

Results

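The genes described here are 10 genes of the extracellular matrix, chosen by name: the fibulin genes Fbln1 and Fbln2, the elastic fibre genes Fbn1 and Eln, the fibronectin gene Fn1, and the matricellular genes Sparc, Tnc, Postn, Thbs1 and Thbs2. The choice was made with earlier results of these data known. All 10 were found by symbol among the 26202 genes of the deposited table. RNA was sequenced from ATDC5, a mouse cell line that follows the steps of cartilage formation in culture, in 3 groups of 3 libraries labelled control, acetate and ethanol. All groups shared a DMEM/F-12 medium with 5% serum, to which 50 µg/mL ascorbate, 10 mM beta-glycerophosphate and 1× insulin-transferrin-selenium were then added for the treatments. The sources used here state neither the amounts and durations of acetate and ethanol nor what the controls received, and the groups model 1 cell line. Nothing in the labels says that the replicates were separate cultures, so p-values measure the spread between these libraries, which may be technical. The series asks whether acetate, to which ethanol is oxidised by way of acetaldehyde, could carry part of the action of ethanol on bone and on chondrocyte differentiation.

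Elastic fibres are built on a scaffold of fibrillin microfibrils, onto which elastin is laid with the help of fibulins, calcium-binding glycoproteins that link the scaffold to proteoglycans and basement membranes. Fibronectin fibrils form the early matrix on which other components are assembled, and condensing cartilage cells lose much of it as they differentiate. Matricellular proteins sit in the matrix without being its main building material and modulate collagen assembly, adhesion and growth factor activity. Several of them are more typical of perichondrium, tendon and bone than of mature cartilage.

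Levels are in TMM-scaled CPM, the reads of a gene scaled to library size (TMM takes most genes to be equal between libraries), given as mean ± SD with n = 3 libraries. Libraries held 28.7 M to 41.9 M reads, so 1 read was worth 0.0231 to 0.0348 CPM. Fold changes are differences in log2(CPM + 1), ± SE, from limma over the 12868 genes that averaged 1 CPM or more. A gene passed where its Benjamini-Hochberg adjusted p over all these genes was under 0.05. The labelled cell type was in keeping with its markers: all 7 chondrocyte markers, Sox9, Col2a1, Acan, Col9a1, Col11a1, Matn1 and Comp, were at 1 CPM or more. Their summed level was 10653 to 14074 CPM in control, 5777 to 6380 in acetate and 5113 to 6398 in ethanol. Tenocyte or fibroblast markers, chiefly Col1a1 and Col3a1, were also high. They summed to 12981 to 15685 CPM in control, 13758 to 18113 in acetate and 9825 to 10646 in ethanol. Markers of epithelium, skeletal muscle and fat summed to at most 2.51 CPM in any library, with Myod1, Myog and Cfd at 0 in all 9. The 4 endothelial markers summed to 1.17 to 1.92 CPM in control and acetate and to 2.18 to 2.38 in ethanol. In bulk RNA, fewer cells of a type and less RNA per cell cannot be told apart.

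Acetate replicate 2 stood apart from the other acetate libraries. Its difference from the mean of the other acetate libraries followed the GC content of transcripts, with r = 0.83 across 12741 genes, which are not independent replicates. Among the 10 genes, Postn had the lowest GC content (44.1%) and was 0.78 lower there on the log2 scale. Fbln1 (54.7% GC) was 0.63 higher, Thbs2 (48.4%) 0.48, Eln (58.8%) 0.45, Fn1 (53.5%) 0.40, Tnc (52.6%) 0.22, Fbln2 (57.0%) 0.20 and Thbs1 (49.9%) 0.18 higher. Fbn1 and Sparc differed by -0.03 and -0.02. The departure thus touched Postn in the downward direction and Fbln1 in the upward direction more than the others. The fold changes of groups that include acetate also followed GC content across these genes. Their r was 0.59 for acetate against control and 0.56 for acetate against ethanol, beside -0.06 for ethanol against control.

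**Figure D1:**
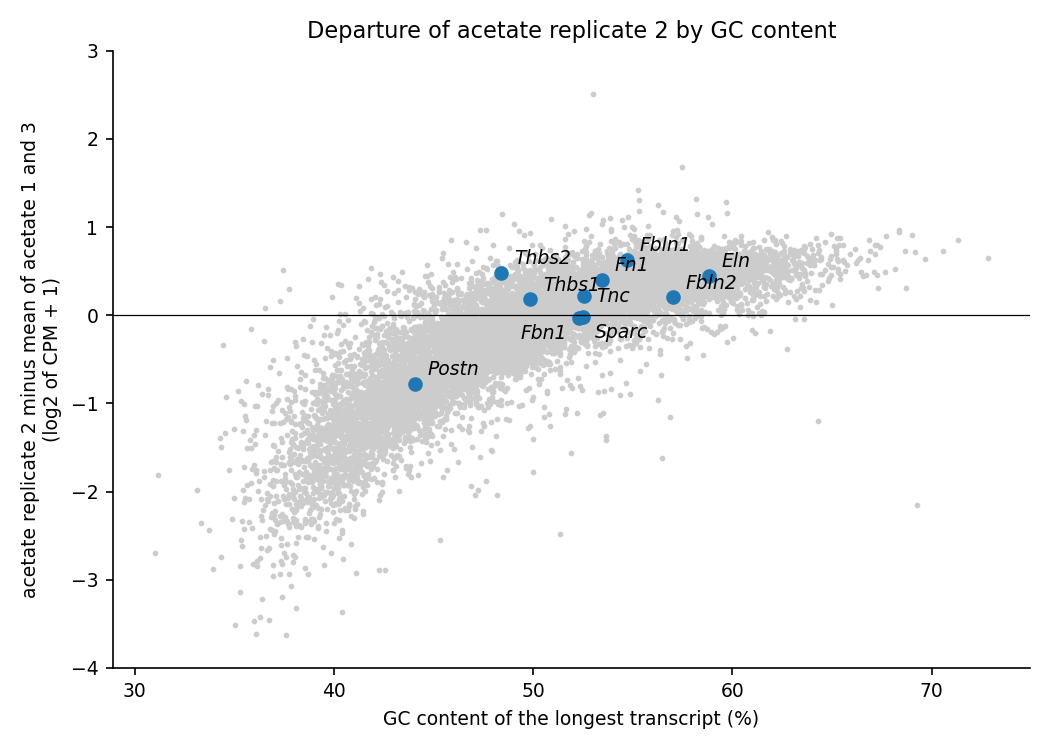
Difference between acetate replicate 2 and the mean of acetate replicates 1 and 3 (vertical, log2 of CPM plus 1) against the GC content of the longest transcript in percent (horizontal), for the tested genes (grey) and the 10 genes (blue). Postn lies lowest of the 10 at -0.78 and Fbln1 highest at 0.63, while Fbn1 and Sparc lie near 0.

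Per kilobase of transcript, the 10 genes spanned a wide range in control cells. Sparc stood first at 2420 ± 161 CPM per kb, rank 4 among 25361 genes with a known length. Fn1 followed at 1164 ± 60.9, Thbs1 at 508 ± 59.3 and Postn at 383 ± 7.26. Tnc at 164 ± 15.8 and Thbs2 at 152 ± 22.7 overlapped, and were the only neighbours in this order that did. Fbn1 (17.1 ± 0.892), Fbln2 (11.8 ± 1.09), Fbln1 (2.18 ± 0.122) and Eln (0.400 ± 0.193) made up the low end. The microfibril and fibulin genes were thus expressed far below the matricellular genes in these cultures, and elastin rested on 17 to 90 reads per library. With acetate, Thbs2 (192 ± 47.1) had a higher mean than Tnc (170 ± 15.3), with overlapping libraries, as were Thbs1 and Postn and Postn and Thbs2, and with ethanol Tnc (182 ± 9.95) and Thbs2 (107 ± 11.6) were separate.

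Fbln1 and Fbln2 had the largest fold changes of the 10 genes between acetate and ethanol, and both were higher in acetate. Fbln1 codes for fibulin-1, a glycoprotein of elastic fibres and basement membranes that binds fibronectin and aggrecan, and lies on chromosome 15 from 85205949 to 85286535 on GRCm38. It read 7.86, 8.49 and 7.62 CPM in control, 16.4, 23.5 and 13.4 in acetate, and 6.44, 7.65 and 6.09 in ethanol. Every acetate library lay above every other library, and the ethanol and control libraries overlapped at the top of the one and the bottom of the other. Fbln1 rose with acetate from 7.99 ± 0.447 to 17.8 ± 5.19 (log2 fold change 1.03 ± 0.18, adjusted p = 0.039). Without acetate replicate 2, the highest library, the acetate mean was 14.9 and the rise 0.82 ± 0.13 (adjusted p = 0.0092). With ethanol the value was -0.22 ± 0.18 (adjusted p = 0.58), and acetate stood above ethanol by 1.25 ± 0.18 (adjusted p = 0.0081; 1.04 ± 0.13 and 0.0012 without acetate replicate 2). The call against control was lost without acetate replicate 1 (adjusted p = 0.057), without control replicate 1, 2 or 3 (0.20, 0.14 and 0.14) and without ethanol replicate 1, 2 or 3 (0.083, 0.075 and 0.080), while the fold change stayed between 0.82 and 1.20. It also missed the threshold with a filter of 5 CPM (0.057), with no filter (0.078), with quantile scaling (0.070) and with only the 6 libraries compared (0.175), and passed in 9 of 20 alternative fits. The call against ethanol passed with each of the 9 libraries left out in turn and in 19 of 20 alternative fits. It missed the threshold with only the 6 libraries compared (adjusted p = 0.056). In a limma fit of all 9 libraries after removal of their GC trends, the rise with acetate was 0.89 ± 0.13 (adjusted p = 0.0048). Acetate stood above ethanol by 1.10 ± 0.13 in that fit (adjusted p = 0.0011).

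Fbln2 codes for fibulin-2, a larger fibulin that bridges aggrecan and versican in cartilage and is plentiful in perichondrium, and lies on chromosome 6 from 91212455 to 91272540. It read 59.7, 50.5 and 59.5 CPM in control, 79.1, 83.2 and 65.7 in acetate, and 34.3, 29.6 and 31.7 in ethanol. The 3 groups did not overlap: ethanol was lowest, control between, acetate highest. Fbln2 fell with ethanol from 56.6 ± 5.24 to 31.9 ± 2.35 (-0.81 ± 0.13, adjusted p = 0.011). With acetate the mean was 76.0 ± 9.14, and the difference from control missed the threshold (0.42 ± 0.13, adjusted p = 0.19; 0.35 ± 0.11 and 0.14 without acetate replicate 2). Acetate stood above ethanol by 1.22 ± 0.13 (adjusted p = 0.0023; 1.16 ± 0.11 and 4.4e-04 without acetate replicate 2), a call that held in all 20 alternative fits. The fall with ethanol missed the threshold without control replicate 1 or 3 (adjusted p = 0.079 and 0.056) and without ethanol replicate 2 or 3 (0.076 and 0.057). After removal of the GC trends, limma gave Fbln2 0.24 ± 0.11 with acetate (adjusted p = 0.21) and 1.03 ± 0.11 between the treatments (5.8e-04).

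Both fibulins and Fbn1 differed between the treatments, so their promoters are shown, from RefSeq on GRCm38.p6, each with 250 bases before and 50 after the annotated start of transcription, on the strand of the gene. Of the 10 genes, 7 had a promoter in the RefSeq set used, with 10 promoters in all. Capitals mark every match, on either strand, to the TATA box TATAAA, the CCAAT box, the GC box GGGCGG, the AP-1 motif TGANTCA, the E-box CACGTG, the TEAD motif GGAATG, the hypoxia response core ACGTG, which the E-box contains on both strands, and the core of interferon-stimulated elements (GAAA, any 2 bases, GAAA). A match is a description of the letters and not a binding site.

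Fbln1, chr15:85205699-85205998, + strand: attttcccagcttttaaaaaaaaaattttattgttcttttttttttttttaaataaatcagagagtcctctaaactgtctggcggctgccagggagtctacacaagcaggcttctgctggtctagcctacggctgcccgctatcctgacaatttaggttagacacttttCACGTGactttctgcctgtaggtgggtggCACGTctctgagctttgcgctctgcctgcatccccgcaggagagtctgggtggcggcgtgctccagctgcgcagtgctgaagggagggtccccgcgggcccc

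Fbln2, chr6:91212514-91212813, + strand: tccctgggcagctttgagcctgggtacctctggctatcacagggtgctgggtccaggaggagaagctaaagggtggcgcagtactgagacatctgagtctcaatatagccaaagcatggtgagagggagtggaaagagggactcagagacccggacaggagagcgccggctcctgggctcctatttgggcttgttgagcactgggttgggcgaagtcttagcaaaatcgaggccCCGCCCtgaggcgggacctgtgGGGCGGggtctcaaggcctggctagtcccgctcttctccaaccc

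Fbn1, chr2:125506389-125506688, − strand: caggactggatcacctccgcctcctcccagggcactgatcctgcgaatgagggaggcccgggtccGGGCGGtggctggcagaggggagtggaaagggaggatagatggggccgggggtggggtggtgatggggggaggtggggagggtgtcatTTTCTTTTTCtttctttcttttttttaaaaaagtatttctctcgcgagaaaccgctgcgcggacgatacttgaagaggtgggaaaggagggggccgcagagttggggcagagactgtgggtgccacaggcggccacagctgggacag

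The Fbln1 window held an E-box at position -81 from the start and a further ACGTG match at -52, and a second RefSeq start for Fbln1 lies close downstream. Fbln2 held a GC box on each side of its start, at -16 and 6. Fbn1 held a GC box at -185 and an interferon-stimulated core at -97, inside a run rich in T. Of 32851 RefSeq promoters, 7.15% held the E-box letters, 19.6% ACGTG, 35.7% the GC box and 3.44% the interferon-stimulated core, against 2, 2, 5 and 1 of the 10 promoters of these genes. The E-box and ACGTG matches are the same letters in the overlapping windows of the pair of Fbln1 starts, and Tnc likewise has 1 TATA box and 1 GC box in both of its windows. The TATA box was in 4 of the 10 (13.6% of all), the CCAAT box in 2 (37.4%), and the AP-1 (7.81%) and TEAD (14.7%) motifs in 0.

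**Figure D2:**
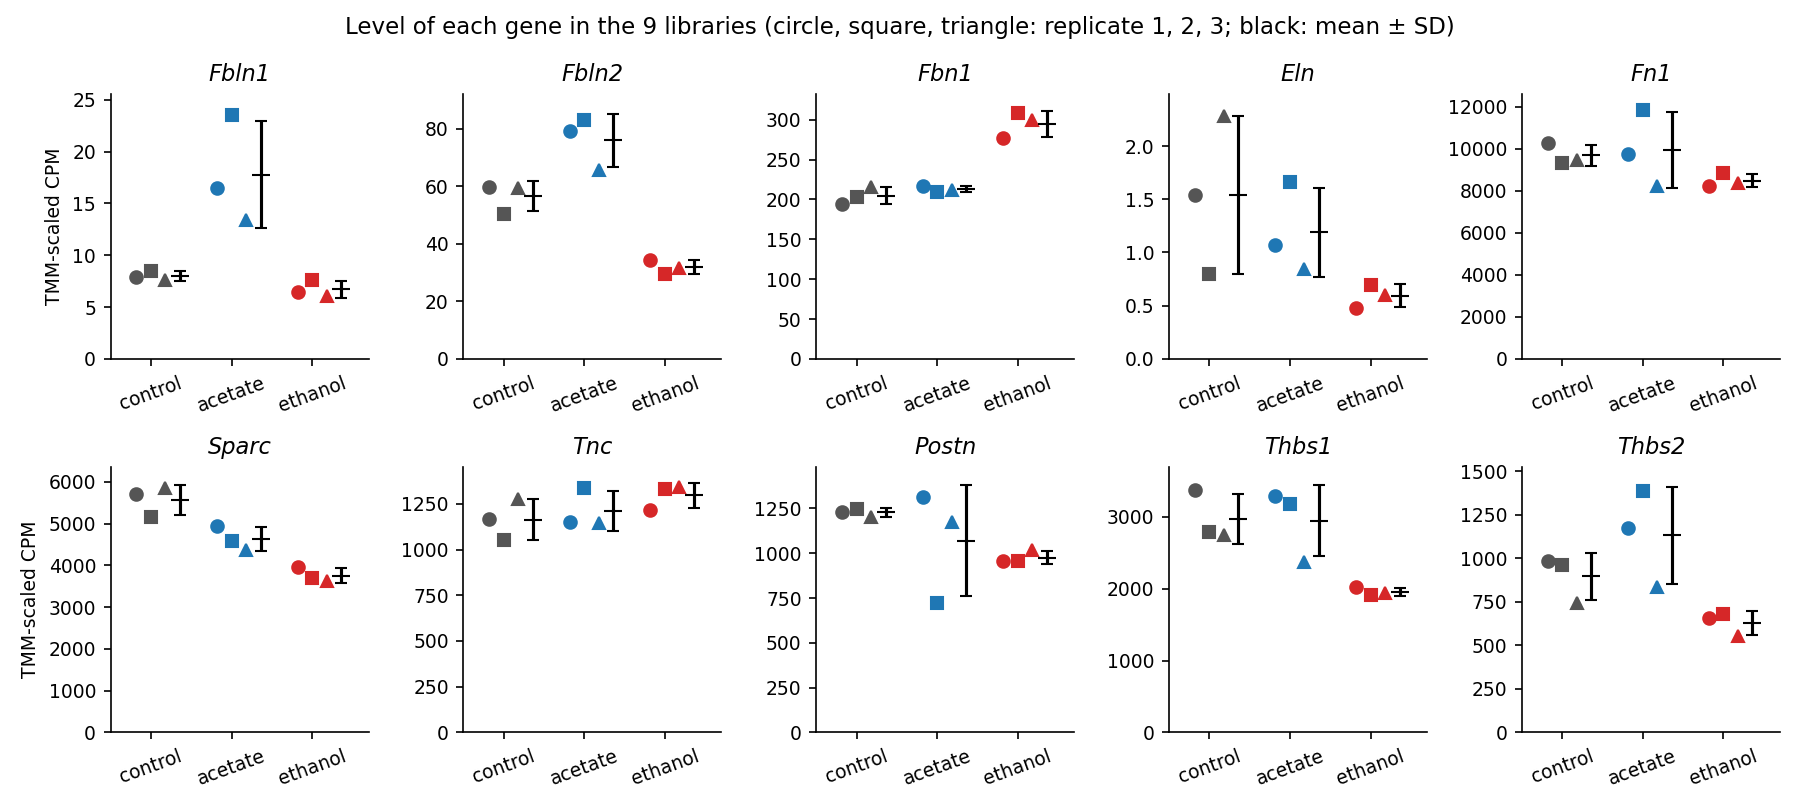
Level in TMM-scaled CPM (vertical, from 0) of each of the 10 genes in control (grey), acetate (blue) and ethanol (red) libraries, with circle, square and triangle for replicates 1, 2 and 3 and the mean ± SD in black. Fbln1 and Fbln2 are highest in acetate, Fbn1 is highest in ethanol (295 ± 16.2), and the 3 ethanol values of Thbs1 lie closely together at 1959 ± 57.0.

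Fbn1, the gene of fibrillin-1, which forms the microfibril scaffold and holds latent TGF-beta in the matrix, went the other way. It lies on chromosome 2 from 125300594 to 125507993 and read 195, 203 and 216 CPM in control, 217, 209 and 213 in acetate, and 277, 309 and 300 in ethanol. The ethanol libraries lay above all others, and control and acetate overlapped. Fbn1 rose with ethanol from 205 ± 10.7 to 295 ± 16.2 (0.53 ± 0.10, adjusted p = 0.024) and was the only one of the 10 to pass as higher in this fit. Acetate left it at 213 ± 3.63 (0.06 ± 0.10, adjusted p = 0.75), and the difference between acetate and ethanol passed (-0.47 ± 0.10, adjusted p = 0.033; -0.46 ± 0.08 and 0.0080 without acetate replicate 2). The rise with ethanol kept its size (0.49 to 0.57) but lost its call without any 1 control library (adjusted p = 0.14, 0.088 and 0.061 for replicates 1, 2 and 3) or ethanol library (0.061, 0.15 and 0.11). The call between the treatments passed without acetate replicate 2 and was lost without each of the other 8 libraries, with adjusted p = 0.053 to 0.18.

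Eln, the gene of elastin, the rubber-like core of the fibre, lies on chromosome 5 from 134702593 to 134747323 and was barely expressed: 1.54, 0.800 and 2.29 CPM in control, 1.07, 1.66 and 0.840 in acetate, and 0.482, 0.697 and 0.600 in ethanol. All ethanol values lay below all others, and the control libraries spread over the range of acetate. At levels near 1 CPM, the 1 CPM added before taking logs makes fold changes smaller. The difference of ethanol from control missed the threshold (-0.63 ± 0.22, adjusted p = 0.16). It passed in 5 of 19 alternative fits, among them without acetate replicate 2 (adjusted p = 0.041) and with the GC trend removed (0.041). Over these fits it ranged from -1.28 to -0.43. With acetate the value was -0.19 ± 0.22 (adjusted p = 0.63; -0.34 ± 0.21 and 0.46 without acetate replicate 2). It passed in 1 of 19 alternative fits, with the replicate block and acetate replicate 2 left out (-0.43 ± 0.15, adjusted p = 0.020). Acetate against ethanol was at 0.44 ± 0.22 (adjusted p = 0.27; 0.29 ± 0.21 and 0.44 without acetate replicate 2). It passed in 0 of 19 alternative fits, where it ranged from 0.20 to 0.94.

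Fn1, which codes for fibronectin, the adhesive glycoprotein of the early matrix, is on chromosome 1 from 71585520 to 71653200. Its level was 10252, 9297 and 9482 CPM in control, 9739, 11834 and 8213 in acetate, and 8244, 8820 and 8380 in ethanol. The ethanol libraries were below the control libraries by little, and the acetate libraries spread across both groups. None of its 3 comparisons passed in limma, with 0.02 ± 0.15 for acetate against control, -0.19 ± 0.15 for ethanol against control and 0.21 ± 0.15 between the treatments (adjusted p = 0.94, 0.55 and 0.39). Without acetate replicate 2 the values with acetate and between the treatments were -0.11 ± 0.15 and 0.08 ± 0.15. Quantile scaling turned Fn1 with ethanol to 0.27 and between the treatments to -0.15.

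Among the matricellular genes, Sparc fell with ethanol. Its direction turned with quantile scaling, which gives genes of the same rank the same value in every library. Sparc ranked 4, 5 and 4 per kilobase in control, acetate and ethanol, but that scaling used levels without correction for length. Why the direction turned was not tested. Sparc codes for osteonectin, a collagen-binding glycoprotein of bone and other tissues that remodel, and lies on chromosome 11 from 55394500 to 55423183. It read 5699, 5148 and 5853 CPM in control, 4934, 4576 and 4367 in acetate, and 3951, 3700 and 3620 in ethanol. The 3 groups did not overlap, with acetate between control and ethanol. The fall with ethanol was from 5567 ± 370 to 3757 ± 173 (-0.57 ± 0.11, adjusted p = 0.030), but with quantile scaling the value turned to 0.05 (adjusted p = 0.80). Acetate was at -0.27 ± 0.11 against control (adjusted p = 0.33) and 0.30 ± 0.11 above ethanol (0.19), values that were -0.26 ± 0.13 and 0.31 ± 0.13 without acetate replicate 2. Quantile scaling turned the former to 0.16 and left 0.11 for the latter. The call with ethanol was lost without control replicate 1, 2 or 3 (adjusted p = 0.14, 0.064 and 0.11) and without ethanol replicate 1, 2 or 3 (0.082, 0.16 and 0.13).

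Thbs1 and Thbs2 code for thrombospondins that bind CD47 and CD36 and restrain vessel growth, and thrombospondin-1 also activates latent TGF-beta. Thbs1 (chromosome 2, 118111876 to 118127133) read 3370, 2796 and 2746 CPM in control, 3288, 3174 and 2378 in acetate, and 2023, 1914 and 1940 in ethanol. The ethanol libraries were below all others and close together, and acetate and control overlapped. Against control, ethanol was at -0.59 ± 0.15 (adjusted p = 0.064). This passed once replicate number was a block in the fit (adjusted p = 0.030) and without acetate replicate 2 (0.014) or 3 (0.029). Acetate was at -0.02 ± 0.15 against control (adjusted p = 0.95) and at 0.57 ± 0.15 against ethanol (0.073; 0.038 with the block, 0.067 without acetate replicate 2 and 0.021 without acetate replicate 3). With quantile scaling Thbs1 was at -0.16 with ethanol (adjusted p = 0.40) and at 0.16 between the treatments (0.31).

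Thbs2 (chromosome 17, 14665500 to 14694235) read 986, 961 and 743 CPM in control, 1175, 1387 and 836 in acetate, and 657, 679 and 552 in ethanol. In each group replicate 3 was the lowest, and every ethanol library lay below every control and acetate library. Acetate was above ethanol by 0.82 ± 0.20, which missed the threshold (adjusted p = 0.056) but passed with the block (0.011) and without acetate replicate 2 (0.66 ± 0.17, adjusted p = 0.039) or 3 (0.016). Against control, ethanol was at -0.50 ± 0.20 (adjusted p = 0.21; 0.041 with the block and 0.040 without acetate replicate 2) and acetate at 0.32 ± 0.20 (0.44; 0.16 ± 0.17 without acetate replicate 2). With quantile scaling ethanol was at -0.30 against control (adjusted p = 0.38).

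Postn codes for periostin, a collagen-associated protein of periosteum and perichondrium, and is on chromosome 3 from 54361109 to 54391037. It read 1231, 1249 and 1203 CPM in control, 1312, 724 and 1176 in acetate, and 954, 955 and 1019 in ethanol. Acetate replicate 2 was the lowest of the 9 libraries, and the other acetate libraries lay on both sides of the control values. With all libraries no comparison of Postn passed in limma, ethanol against control being at -0.33 ± 0.20 (adjusted p = 0.41). Without acetate replicate 2 the same fold change passed (-0.33 ± 0.08, adjusted p = 0.021), acetate against control went from -0.24 ± 0.20 to 0.02 ± 0.09, and acetate against ethanol from 0.09 ± 0.20 to 0.35 ± 0.09 (adjusted p = 0.046). In a fit of all 9 libraries after removal of their GC trends, these values were -0.35 (adjusted p = 0.010), -0.01 and 0.34 (0.015). With quantile scaling they were -0.12, -0.16 and -0.04.

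Tnc, the gene of tenascin-C, an anti-adhesive glycoprotein of condensing mesenchyme and perichondrium, lies on chromosome 4 from 63959785 to 64047015 and gave 1166, 1051 and 1276 CPM in control, 1151, 1335 and 1143 in acetate, and 1215, 1333 and 1342 in ethanol. The 3 groups overlapped. Its fold changes were 0.06 ± 0.12 with acetate, 0.16 ± 0.12 with ethanol and -0.10 ± 0.12 between them (adjusted p = 0.81, 0.54 and 0.61 in limma). Tnc was at -0.02 ± 0.11 with acetate and at -0.17 ± 0.11 between the treatments without acetate replicate 2, and with quantile scaling the 3 values were 0.12, 0.38 and -0.26.

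**Figure D3:**
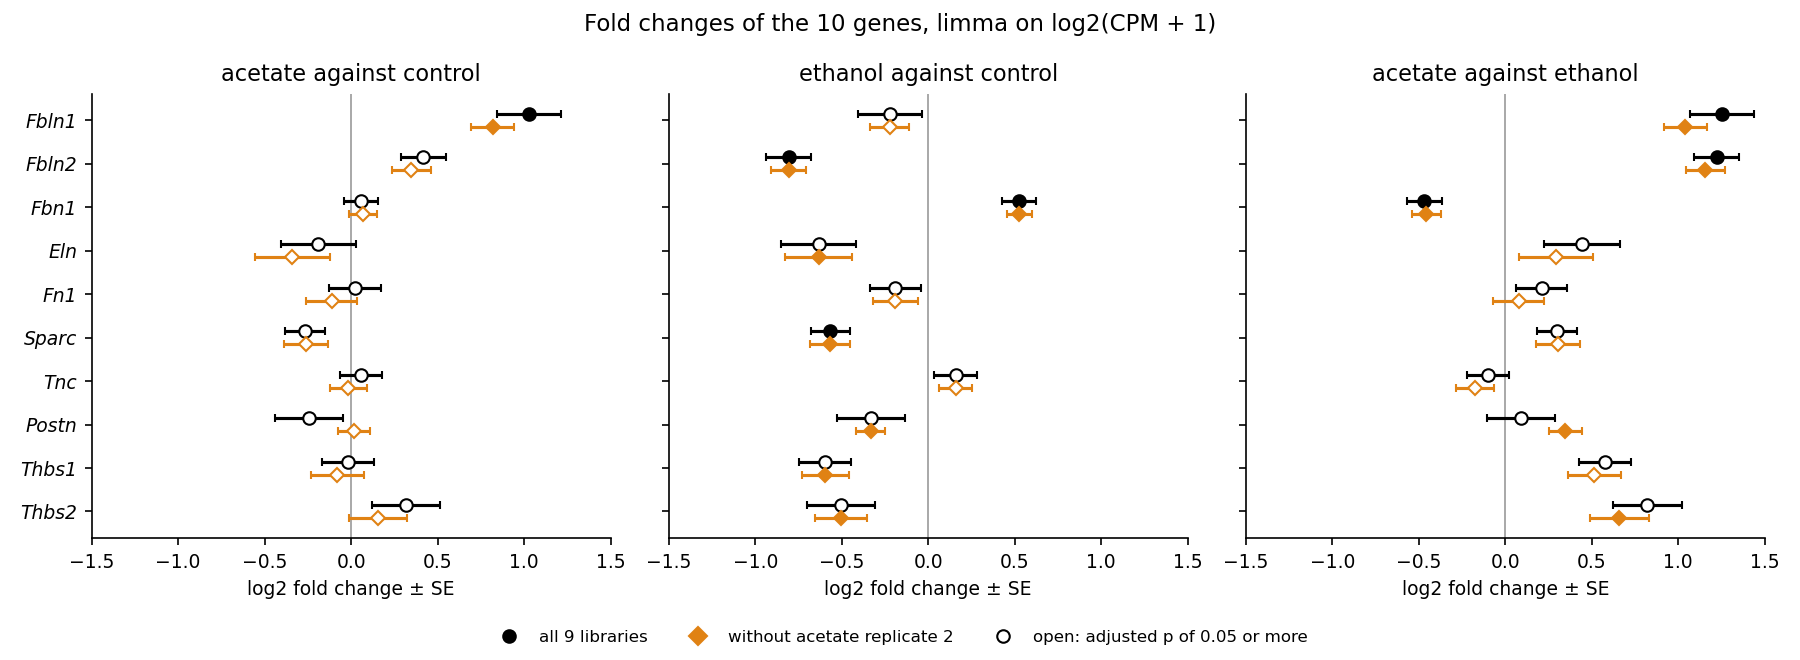
Log2 fold change ± SE (horizontal) of each of the 10 genes in the 3 comparisons, with all 9 libraries (black circles) and without acetate replicate 2 (orange diamonds), filled where the adjusted p was under 0.05. Fbln1 and Fbln2 lie above 1 between acetate and ethanol in both fits, Postn moves from 0.09 to 0.35 there, and Sparc with ethanol (-0.57) turned to 0.05 with quantile scaling, which is not drawn.

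Counted over the set, 1 of the 10 genes passed for acetate against control (Fbln1), where 1.00% of all genes tested did. For ethanol against control 3 passed, Fbn1 higher and Fbln2 and Sparc lower, against 3.93% of all genes, and between acetate and ethanol 3 passed, Fbln1 and Fbln2 higher in acetate and Fbn1 lower, against 3.73%. Without acetate replicate 2 the counts were 1, 7 and 5, against 3.48%, 21.5% and 8.61% of all genes, and with replicate number as a block 1, 5 and 5, against 2.28%, 8.35% and 6.40%. The 7 that passed for ethanol without acetate replicate 2 were Fbln2, Sparc, Thbs1, Thbs2, Postn and Eln, all lower, and Fbn1, higher. The groups did not overlap for 3 of the 10 genes with acetate (19.5% of all genes), for 8 with ethanol (43.4%) and for 7 between the treatments (27.8%). The median log2 fold change of the 10 was 0.04 with acetate, -0.42 with ethanol and 0.37 between the treatments, where that of all genes was -0.01, 0.00 and -0.01. With quantile scaling the medians of the 10 were 0.12, -0.14 and 0.13, and 4 of the 10 values with ethanol were above 0, where 2 were before. Acetate and ethanol were each compared with the same 3 control libraries, so these comparisons are not independent. The 10 genes were also chosen with earlier results of these data known. Their counts beside the shares of all genes are therefore a description and no test of the set. Beside the ethanol values, the 5 tenocyte or fibroblast markers (4 of them at 1 CPM or more, Tnmd at 0 in control and ethanol) summed to 12981 to 15685 CPM in control, 13758 to 18113 in acetate and 9825 to 10646 in ethanol. Col1a1 and Col3a1 made up nearly all of these sums. Scx was 11.6 to 13.1 CPM in control and 14.0 to 16.9 in ethanol, without overlap, and Col3a1 averaged 2338 CPM in control and 1824 in acetate. Their part in the ethanol values was not tested.

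By likeness over the 9 libraries, the genes nearest to Fbln1 were Ttyh3, Aqp5 and Csnk1e, each with a Pearson r of 0.98 on log2 of CPM plus 1 (0.99, 0.97 and 0.97 without acetate replicate 2). Aqp5 averaged 17.9 CPM in control, 41.7 in acetate and 12.9 in ethanol. Nearest to Fbln2 were Acsl6, Mmaa and Rasl12 (0.99 each, and the same without it), and nearest to Sparc were Fads1 (0.99), Ackr3 and Ccdc80 (0.98 each; 0.99, 0.98 and 0.98 for the 3 without it). Fbn1 was most like Tcim (0.99), Mlkl (0.98) and Cd274 (0.97; 0.99, 0.98 and 0.98 for the 3 without it), of which Cd274 averaged 4.22 CPM in control, 5.69 in acetate and 11.7 in ethanol. These r values describe 9 libraries in 3 groups that all share, and were the highest among all genes that averaged 5 CPM or more.

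Of the 6 other fibulin genes listed, 4 were tested and 1 passed, with acetate and with ethanol, where 1.00% and 3.93% of all genes did. Fbln7, the gene of a cell-adhesive fibulin, fell with both treatments: from 27.2 ± 1.60 to 14.4 ± 0.889 with acetate (-0.87 ± 0.12, adjusted p = 0.016) and to 15.3 ± 1.71 with ethanol (-0.80 ± 0.12, adjusted p = 0.0078). Between the treatments Fbln7 differed by -0.08 ± 0.12 (adjusted p = 0.68), and its value with acetate was -0.83 without acetate replicate 2. Efemp2, which codes for fibulin-4, an organiser of elastin crosslinking, was at -0.77 ± 0.18 with ethanol and missed the threshold (adjusted p = 0.0501; 0.043 with the block). Fbln5, the gene of fibulin-5, which tethers elastin to cells, was at -0.10 ± 0.10 with acetate and -0.11 ± 0.10 with ethanol. The family's median was -0.29 with acetate, -0.44 with ethanol and -0.04 between them.

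Of 19 genes for microfibrils and elastic fibre assembly 16 were tested. With either treatment 0 passed against control in limma (6 with acetate and 4 with ethanol had an unadjusted p under 0.05), while with the replicate block 1 rose with ethanol (Ltbp1, a gene of latent TGF-beta binding, 0.40, adjusted p = 0.044) and 1 fell (Thsd4, a gene of microfibril assembly, -0.54, adjusted p = 0.031), where 8.35% of all genes passed. In the fit of all libraries 3 were higher in acetate than in ethanol: Adamtsl2, whose product binds fibrillin (16.2 ± 2.80 against 8.15 ± 1.03 CPM, 0.90 ± 0.15, adjusted p = 0.011), Emilin2, an elastin-interface glycoprotein gene (100.1 ± 20.6 against 55.2 ± 4.31, 0.83 ± 0.16, adjusted p = 0.024), and Npnt, which codes for the integrin ligand nephronectin (0.76 ± 0.16, adjusted p = 0.031). In that fit 1.00%, 3.93% and 3.73% of all genes passed with acetate, with ethanol and between the treatments. The list's median was 0.16 with acetate, -0.23 with ethanol and 0.29 between the treatments. Without acetate replicate 2, 1 rose and 1 fell with acetate, and 2 rose and 4 fell with ethanol, where 3.48% and 21.5% of all genes passed. The values without it were 0.78 for Adamtsl2, 0.68 for Emilin2 and 0.89 for Npnt, and the medians with acetate and between the treatments were 0.05 and 0.19.

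Of 24 other matricellular genes 19 were tested. Igfbp7, which codes for an insulin-like growth factor binding protein of vessel walls and matrix, fell with ethanol from 34.7 ± 0.669 to 17.2 ± 1.03 (-0.97 ± 0.10, adjusted p = 0.0021), and stood at 27.1 ± 1.70 in acetate, above ethanol by 0.63 ± 0.10 (adjusted p = 0.011). Ccn1, the gene of a YAP-responsive adhesive protein, averaged 169 ± 38.9 CPM with acetate and 95.2 ± 10.8 CPM with ethanol (0.80 ± 0.18, adjusted p = 0.043). Ecm2, a collagen-binding leucine-rich protein gene, fell with acetate from 7.61 ± 0.939 to 2.27 ± 1.08 (-1.45 ± 0.23, adjusted p = 0.027) and was lower there than in ethanol (-1.23 ± 0.23, adjusted p = 0.022). With acetate replicate 2 left out, the values of Ecm2 were -1.15 and -0.92, and those of Igfbp7 and Ccn1 between the treatments 0.62 and 0.67. The list's medians were 0.18, -0.18 and 0.32 (0.11 and 0.21 without it for those with acetate and between the treatments). With the replicate block, 2 fell with ethanol (8.35% of all genes passed), and 4 were higher and 2 lower in acetate than in ethanol (6.40%).

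Among 14 tested receptor and clearance genes, of 18 in the table, only Calr passed in limma. Its product calreticulin is a chaperone and, at the cell surface, a thrombospondin receptor, and it fell with ethanol from 1296 ± 92.2 to 882 ± 37.7 (-0.55 ± 0.11, adjusted p = 0.031). Of 12 matrix binding partners, all tested, 2 fell with ethanol: the basement membrane gene Nid2, from 564 ± 47.6 to 359 ± 20.8 (-0.65 ± 0.12, adjusted p = 0.021), and the decorin gene Dcn (-1.76 ± 0.25, adjusted p = 0.0066). Of all genes tested, 3.93% passed with ethanol in the same fit as Calr, Nid2 and Dcn. These lists had medians of -0.04 and -0.16 with acetate, -0.14 and -0.35 with ethanol, and 0.25 and 0.17 between the treatments. With the replicate block, 1 binding partner rose and 1 fell with acetate, where 2.28% of all genes passed, and 2 were higher in acetate than in ethanol (6.40% of all genes). Of the 13 calls named from the lists, 13 held without acetate replicate 2, 10 each without acetate replicate 1 or 3, 6, 8 and 8 without control replicate 1, 2 and 3, and 5, 3 and 5 without ethanol replicate 1, 2 and 3, with adjusted p up to 0.18 where lost. The calls of Dcn and Igfbp7 with ethanol held in all 9 of these fits. Those of Ecm2 with acetate and of Ccn1 and Npnt between the treatments each held in only 2 of the 9.

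**Figure D4:**
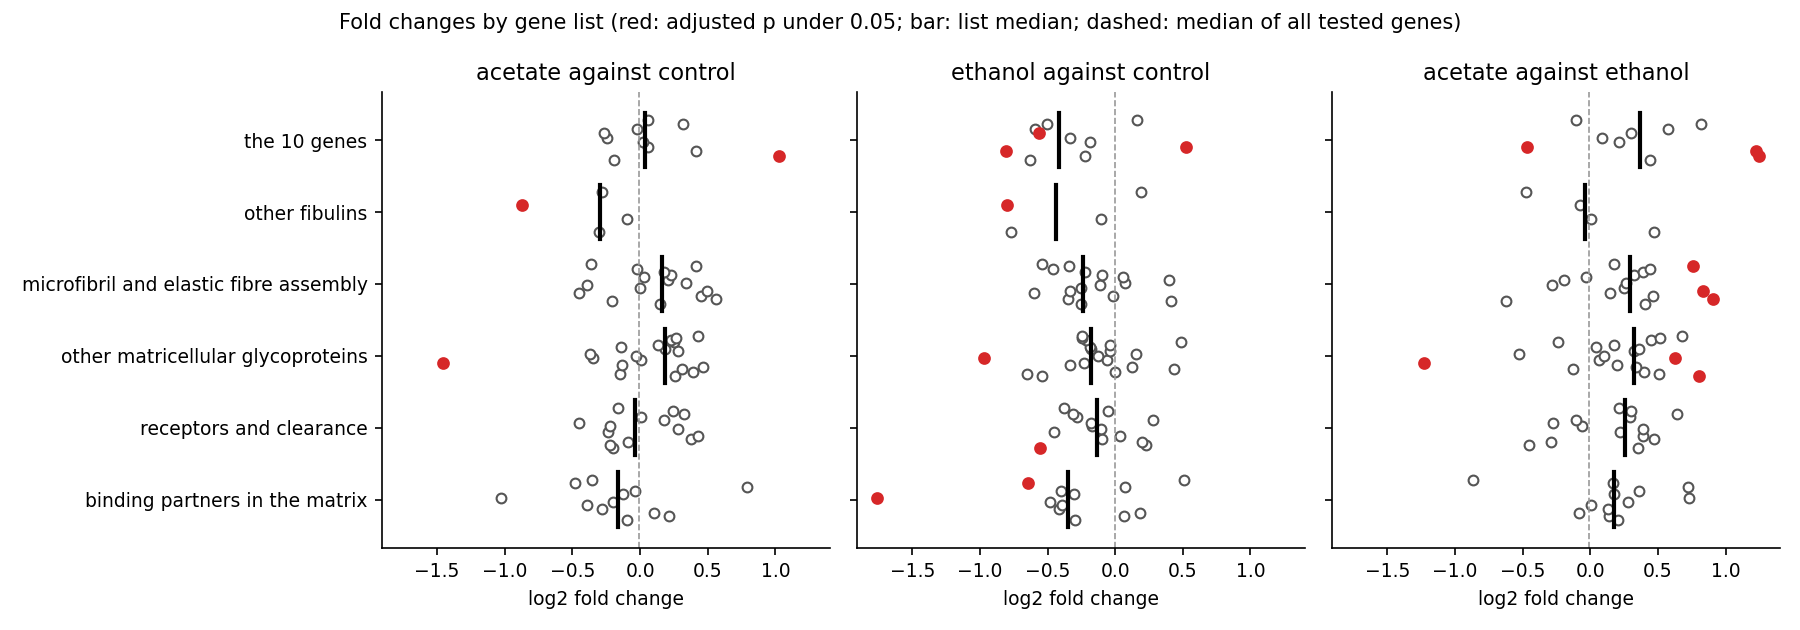
Log2 fold changes (horizontal) of the 10 genes and of the tested genes of 5 related lists in the 3 comparisons, with genes at an adjusted p under 0.05 in red, list medians as black bars and the median of all tested genes as a dashed line. Medians with ethanol lie left of the dashed line in every row (-0.42 for the 10 genes, of which Sparc at -0.57 turned to 0.05 with quantile scaling), and Fbln7 stands at -0.87 and -0.80 in the left and middle panels.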

How the data were processed

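RNA of ATDC5 cells was isolated with Trireagent and made into 9 libraries with a stranded Illumina mRNA kit, per the labels. The authors deposited 1 table of log2 values of TMM-normalised counts, per the file name. Per the submitters' processing notes, STAR 2.7.8a, Bowtie2 2.2.5 and Partek were used with mm10. The sources used here state neither their roles nor the annotation and strand setting of the counting. Of the 10 genes, Fbn1, Eln, Tnc, Fn1 and Thbs1 overlap a gene annotated on the opposite strand, whose reads may not have been kept apart.

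Values were raised to a power of 2 and the floor of each library, as an offset of 1e-05 read would give, was subtracted. Between 0.5 and 20 recovered reads, the share of values within 0.02 of a whole read was 85.7% to 87.4% in each library. This falls short of nearly all, so the main fit used no count model, and voom on recovered reads was run only as an alternative. Limma 3.58.1 in R 4.3.3 fitted log2 of CPM plus 1 over all 9 libraries, with 1 mean per group, moderated variances with a mean trend, two-sided tests and Benjamini-Hochberg adjustment over 12868 genes (mean of at least 1 CPM). The fit was tested on simulated data with planted changes and independent normal noise per gene. Those data held no GC trend, departing library or pairing, so the test does not cover these features. With 3 libraries against 3, an exact permutation test of single values could not pass and was not used.

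Lengths, positions and GC content came from GENCODE M21 (GRCm38, the build named mm10), from the longest coding transcript. Of 26202 genes, 24919 matched by symbol, 442 by synonym and 841 not at all. Promoters came from RefSeq. Python 3.11.15 with pandas 2.3.3 handled the tables and matplotlib 3.10.9 the figures. The 10 genes, the lists and the alternatives were chosen with earlier results of these data known. The rule for named genes took all 10 genes, up to 4 genes past the threshold per list and comparison, and the 3 genes most like each of the 10 that passed in any comparison. One list of markers of other cells is not reported here.

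Replicate numbers come from the titles. Deviations from group means of same-numbered libraries correlated across genes at 0.55, 0.36 and 0.67 for ethanol and control. The values were 0.15, 0.25 and 0.61 for acetate and ethanol, and 0.25, -0.10 and 0.41 for acetate and control. Acetate replicate 2 enters the replicate 2 value of both pairs of groups with acetate (0.25 and -0.10). The numbers were taken to pair libraries for ethanol and control and for acetate and ethanol, the latter with low values at replicates 1 and 2. The blocked fit was run for all 3 comparisons. Libraries with different numbers were not correlated, so these values do not show that equal numbers mark a pair. Alternatives covered the pseudocount (0.1), the filter (5 CPM, or none), median-of-ratios and quantile scaling, the libraries fitted, each library left out, the replicate block, removal of the GC trend (lowess, span 0.3) and voom on recovered reads. Quantile scaling sets genes of the same rank to the same value in every library. It can flatten or turn changes among the highest genes. Its part in the values of Sparc, Fn1 and Thbs1 was not tested.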

Additional observations from a re-analysis of the deposited data

How the results depend on the processing

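The number of the 10 genes past the threshold (1 for acetate against control, 3 for ethanol against control, 3 for acetate against ethanol) depended on the fit. For acetate against control it was 0 with a filter of 5 CPM, with no filter, with quantile scaling and with only the 6 libraries compared, and 3 with the replicate block combined with GC trend removal or with acetate replicate 2 left out. For ethanol against control it was 7 with only the 6 libraries compared, 5 with the replicate block, 6 with the GC trend removed, 9 with both, and 8 with the block and acetate replicate 2 left out. For acetate against ethanol it was 1 with only the 6 libraries compared, 5 with the block, 6 with the GC trend removed, 8 with both, and 6 with the block and acetate replicate 2 left out. With each library left out in turn it ranged from 0 to 1, from 0 to 7 and from 2 to 5. Over all genes, 129, 506 and 480 passed in the 3 comparisons, in this order. The counts were 52, 283 and 307 with a filter of 5 CPM, 20, 3443 and 107 with only the 6 libraries compared, 293, 1074 and 823 with the replicate block, 785, 2301 and 1570 with the GC trend removed, 2661, 5045 and 4313 with both, and 2773, 6466 and 4262 with the block and acetate replicate 2 left out. They ranged from 0 (without control replicate 3, where limma gave 1720 genes an unadjusted p under 0.05) to 448, from 98 to 2766 and from 103 to 1108 with 1 library left out. Quantile scaling moved the split of higher and lower genes with acetate from 65 and 64 to 38 and 62. Counts with the block and acetate replicate 2 left out rest on an infinite prior on the variances, and their low p-values are no measure of strength. Sparc with ethanol was 0.0536 with quantile scaling in place of -0.57, and it was the only called fold change among the 10 genes to turn sign. Of 597 refits of the 30 fold changes, 512 kept their side of the threshold and 46 passed where the fit of all libraries had not. Another 38 missed where that fit had passed, and 1 called fold change, Sparc with ethanol, turned sign with quantile scaling. Sign changes of fold changes without a call, such as Fn1 with ethanol (0.27 with quantile scaling), are not part of that 1. The cause of these differences was not tested. Fbln2 between acetate and ethanol passed in 20 of 20 alternatives and Fbln1 in 19 of 20. Eln rested on 17 to 90 reads per library, the fewest of the 10 genes.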
